A study of Mus musculus with 12 samples.

Results

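The genes described here are 10 members of the NF-κB survival group, chosen by symbol. They are the cIAP ubiquitin ligases Birc2 and Birc3, the adaptors Traf1, Traf2 and Traf3, the caspase-8 inhibitor Cflar, the anti-apoptotic Bcl2 relatives Bcl2l1 and Mcl1, and the TNF-induced genes Tnfaip2 and Tnfaip8. All 10 were found among the 23337 symbols of the count tables, and all 10 were among the 14134 genes that passed the filter on low counts. RNA was counted in oesophageal epithelium of C57BL/6 mice aged 6 weeks, in 4 genotype groups of 3 libraries. The Combined group carried ED/L2-Cre+, ROSA26-StopFL-Ikk2ca+/L and Stat3L/L, so that Cre both released a constitutively active IKKβ and deleted floxed Stat3. The Active IKKβ group carried ED/L2-Cre+ and ROSA26-StopFL-Ikk2ca+/L, and its label lists no Stat3 allele. The Stat3 loss group carried ED/L2-Cre+ and Stat3L/L. The Control group carried ROSA26-StopFL-Ikk2ca+/L and Stat3L/L without Cre, which leaves both alleles unrecombined. The ED/L2 promoter of Epstein-Barr virus directs Cre to oesophageal epithelial cells, and the epithelium was separated mechanically from the stroma before polyadenylated RNA was taken. Cre therefore differs between Control and every other group, but not between the Combined and Stat3 loss groups.

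IKKβ is the kinase that marks the inhibitory IκB proteins for destruction and so lets NF-κB dimers enter the nucleus. At TNF family receptors, TRAF2 brings cIAP1 and cIAP2, the products of Birc2 and Birc3, into a complex that ubiquitinates RIPK1, sustains NF-κB signalling and restrains caspase-8. TRAF3 together with TRAF2 and the cIAPs also keeps the kinase NIK low, which holds the alternative NF-κB arm of p100 and RelB in check. Several of these genes, Birc3, Traf1, Cflar and Tnfaip2 among them, are textbook NF-κB targets in other cells.

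Library depth was 14.8 to 21.4 M counts in the Combined group, 19.0 to 25.6 M in Active IKKβ, 19.4 to 21.1 M in Stat3 loss and 16.35 to 30.2 M in Control. The labels do not say that libraries come from separate animals, so p-values measure the spread between these libraries. Sex-linked transcripts of replicate 1 differed from those of replicates 2 and 3 in every group. The libraries of a group are therefore not all copies of 1 animal. Whether replicates 2 and 3 come from separate animals is not stated. Ikbkb, which encodes IKKβ, had 83.4 to 97.0 CPM (scaled counts per 1 M) in Combined, 84.6 to 97.7 in Active IKKβ, 61.2 to 72.4 in Stat3 loss and 59.7 to 82.6 in Control, and its mean change with active IKKβ was 0.43 ± 0.10 (log2, edgeR adjusted p = 0.0373). Stat3 had 154 to 194 CPM in Combined, 158.5 to 239 in Active IKKβ, 139 to 154 in Stat3 loss and 157 to 179 in Control, and its change with Stat3 loss was -0.22 ± 0.15 (log2, edgeR adjusted p = 0.788). Gene counts do not show whether the floxed part was missing from these transcripts. All 10 squamous epithelium markers, Krt5, Krt14 and Trp63 among them, were counted in every library. Some libraries stood apart. Gastric markers summed to 1708 CPM in Active IKKβ replicate 1 and to 113 CPM in the third Stat3 loss library, and no other library exceeded 18.75 CPM. Skeletal muscle markers summed to 19.6 to 186 CPM in Combined and 42.95 to 687 in Active IKKβ. In Stat3 loss they summed to 17.2 to 1462 CPM and in Control to 6.71 to 250.5. Fibroblast markers summed to 524 to 1213 CPM in Combined and 557 to 1384 in Active IKKβ. In Stat3 loss they summed to 758 to 1945 CPM and in Control to 700 to 2284. The part of these tissues in the member values was not tested. The suprabasal keratins Krt4 and Krt13 took 10.4 to 13.9% of counts in 6 libraries and 4.05 to 6.62% in the other 6. The keratin-rich libraries were 2 of Combined, 2 of Active IKKβ, 1 of Stat3 loss and 1 of Control. Replicate 1 of every group had female and replicates 2 and 3 male sex-linked transcripts.

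The promoters of the 4 members called higher with active IKKβ are shown first, because NF-κB acts through κB sites in DNA. RefSeq windows of 300 bases, from 250 before to 50 after each start site (build GRCm38.p6), were read for 9 of the 10 members, at 12 start sites. Tnfaip8 was left out. Each window was searched on both strands for the κB consensus, a motif of 10 letters, and for the STAT motif TTCNNNGAA. Capitals mark a κB match, and each sequence is written 5′ to 3′ on the strand of its gene.
Tnfaip2, chr12:111442411-111442710, plus strand: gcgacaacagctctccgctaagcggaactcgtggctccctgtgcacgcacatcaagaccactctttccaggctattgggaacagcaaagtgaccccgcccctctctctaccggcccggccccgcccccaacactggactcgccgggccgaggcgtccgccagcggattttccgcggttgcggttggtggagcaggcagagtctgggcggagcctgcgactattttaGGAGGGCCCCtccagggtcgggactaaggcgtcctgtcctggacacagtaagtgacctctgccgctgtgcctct
Traf3, chr12:111166120-111166419, plus strand: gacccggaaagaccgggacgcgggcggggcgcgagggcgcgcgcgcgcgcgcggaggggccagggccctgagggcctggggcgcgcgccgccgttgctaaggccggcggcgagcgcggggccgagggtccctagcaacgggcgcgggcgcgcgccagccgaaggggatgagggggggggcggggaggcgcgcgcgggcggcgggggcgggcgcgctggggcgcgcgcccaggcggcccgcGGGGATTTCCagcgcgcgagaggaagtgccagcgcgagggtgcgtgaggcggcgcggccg
Birc3, chr9:7873121-7873420, minus strand: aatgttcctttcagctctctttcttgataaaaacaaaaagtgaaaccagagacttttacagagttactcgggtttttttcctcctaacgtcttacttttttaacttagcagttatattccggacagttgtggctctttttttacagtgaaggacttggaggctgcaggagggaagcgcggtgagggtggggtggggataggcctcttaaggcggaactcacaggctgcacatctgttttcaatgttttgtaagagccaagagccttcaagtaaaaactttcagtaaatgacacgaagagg
Traf2, chr2:25546891-25547190, minus strand: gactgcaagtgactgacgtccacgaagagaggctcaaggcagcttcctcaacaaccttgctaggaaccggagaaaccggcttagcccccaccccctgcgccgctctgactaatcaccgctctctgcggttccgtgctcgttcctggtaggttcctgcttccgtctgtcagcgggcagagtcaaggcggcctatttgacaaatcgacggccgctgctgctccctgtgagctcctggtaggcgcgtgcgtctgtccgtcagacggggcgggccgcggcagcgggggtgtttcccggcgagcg
The Tnfaip2 match lies on the opposite strand and begins at position -24 from the start site, and the Traf3 match begins at -10. The Birc3 and Traf2 windows hold no κB match, which says only that these letters are not in these 300 bases. Another match stands at -242 of the second Bcl2l1 start site, and none of the windows at these 12 start sites holds TTCNNNGAA. Among all 32851 RefSeq windows of this length 8.46% hold the κB consensus and 8.3% the STAT motif. A match is a description of the letters and not a measured binding site.

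Per kilobase of merged exons, the members spanned a wide range of levels. Averaged over the 12 libraries, Mcl1, a short-lived guardian of mitochondria, stood at 65.7 CPM per kb and Tnfaip2 at 34.7. Bcl2l1, which encodes Bcl-xL, followed at 13.0 CPM per kb and Tnfaip8 at 12.3. The place of Tnfaip2 differed by group, with 44.8 CPM per kb in Combined and 75.1 in Active IKKβ. In Stat3 loss it had 9.31 CPM per kb, below Bcl2l1 at 13.31 and Tnfaip8 at 13.29. In Control it had 9.45 CPM per kb, below Bcl2l1 at 13.16 and Tnfaip8 at 12.85. Traf3 had 8.50 CPM per kb, Traf2 7.65, Birc2 7.19, Birc3 3.86 and Cflar 3.68. Traf1 was far below all of these at 0.117 CPM per kb, with 8 to 39 counts per library. Several neighbours in this order overlapped across libraries. Bcl2l1 spanned 8.89 to 16.7 CPM per kb and Tnfaip8 9.53 to 14.8. Traf3, Traf2 and Birc2 spanned 6.55 to 10.9, 5.345 to 9.85 and 5.27 to 9.03 CPM per kb. Per kilobase of the longest transcript, Mcl1, Tnfaip2, Traf2 and Traf1 held their places and the other 6 members moved by 1 or 2 places.

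**Figure D1:**
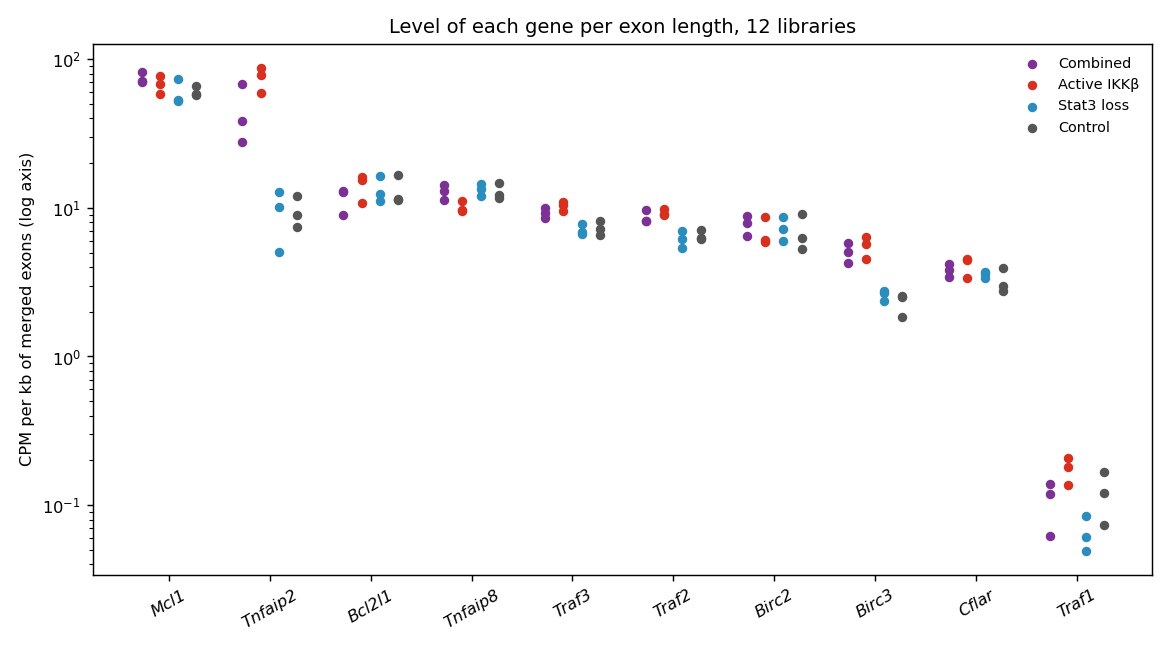
Level of each member in CPM per kilobase of merged exons, on a log axis, with 1 point per library and the groups side by side (Combined, Active IKKβ, Stat3 loss, Control). Mcl1 averaged 65.7 and Traf1 0.117 CPM per kb, and Tnfaip2 spread from 5.015 to 87.0.

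Taking the mean of the changes with active IKKβ, with and without Stat3 loss, 4 of the 10 members were called higher and none lower. Those were Tnfaip2, Birc3, Traf2 and Traf3, against 2.12% of all 14134 genes called higher in the same fit (edgeR, adjusted p below 0.05). These were also the members whose 6 libraries with active IKKβ all lay above the 6 without it, which 1.52% of all genes did. The median log2 fold change was 0.34 over the 10 members and 0.00 over all genes tested. The members were chosen with earlier results of these data known, so these shares and medians carry no test of the group. Taken alone, Active IKKβ against Control called 2 members higher, Tnfaip2 and Birc3, where the background was 0.899% of genes. That comparison, which enters the mean, also differs in Cre and in the Stat3 allele listed. Combined against Stat3 loss, in which both groups carry Cre and Stat3L/L, called Tnfaip2 alone, where the background was 0.41%. DESeq2 called 4 members higher in Active IKKβ against Control, adding Traf2 (adjusted p = 0.0107) and Traf3 (0.00718), where it called 2.29% of genes higher. In Combined against Stat3 loss DESeq2 called 3, adding Birc3 (adjusted p = 0.000374) and Traf2 (0.0252), where it called 1.38% of genes higher.

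**Figure D2:**
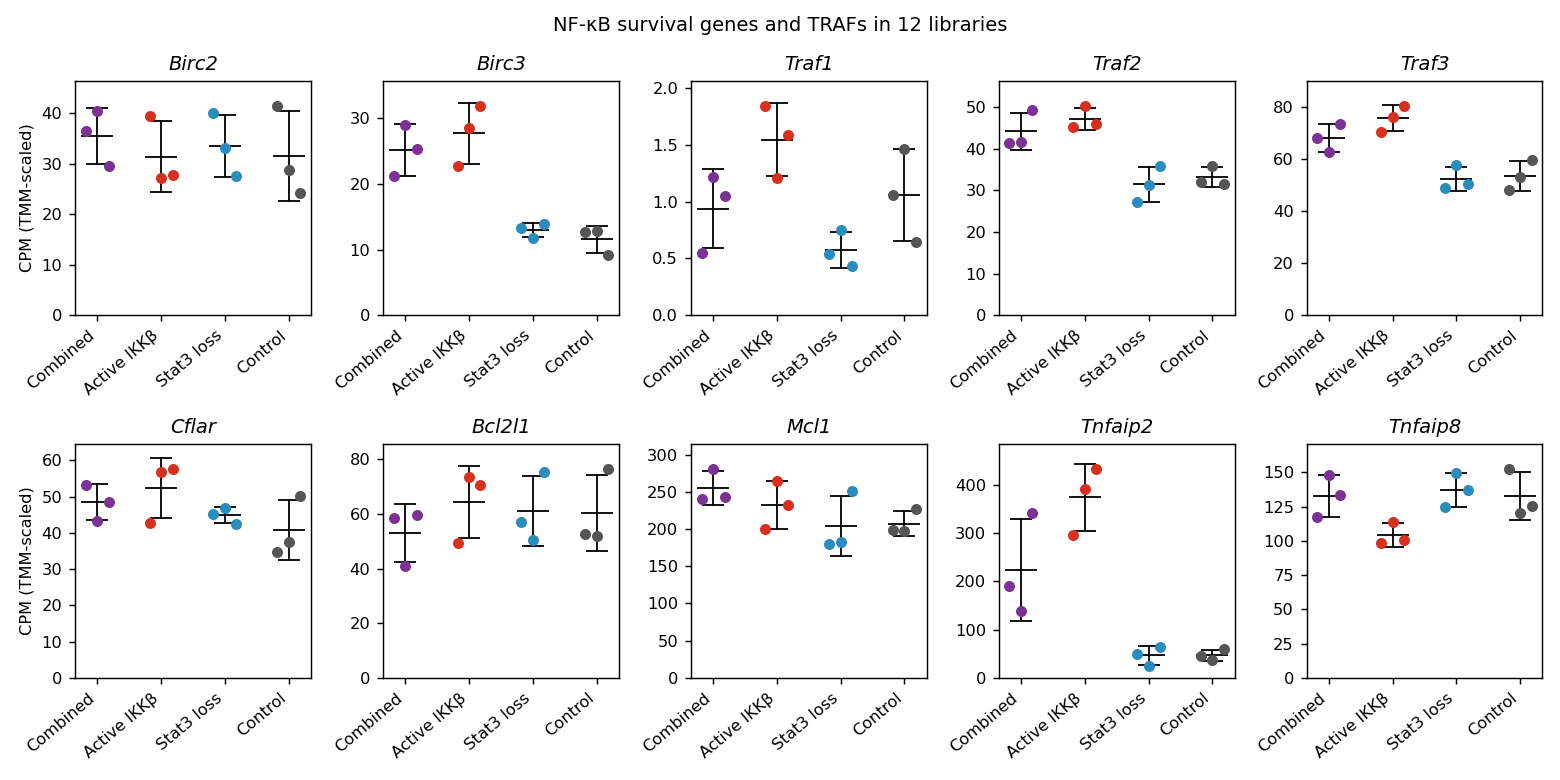
Scaled CPM of the 10 members in every library, with 1 point per library, a horizontal bar at the group mean and error bars of 1 SD (n = 3). In Tnfaip2, Birc3, Traf2 and Traf3 every Combined and Active IKKβ library lies above every Stat3 loss and Control library. For the other 6 members the libraries with and without active IKKβ interleave.

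Tnfaip2, a TNF-induced gene whose product takes part in membrane protrusion and nanotube formation, had the largest change of the members. Its libraries held 190, 139 and 341 CPM in Combined, 297, 392 and 434 CPM in Active IKKβ, 50.3, 25.0 and 64.0 CPM in Stat3 loss, and 44.6, 37.1 and 59.55 CPM in Control. The lowest library with active IKKβ, at 139 CPM, stood above the highest without it, at 64.0 CPM. Tnfaip2 rose 7.94-fold in Active IKKβ against Control (log2 2.99 ± 0.40, edgeR adjusted p = 0.00642). Within Cre carriers, in Combined against Stat3 loss it rose 4.81-fold (log2 2.27 ± 0.39, edgeR adjusted p = 0.038). The mean of both changes was 2.63 ± 0.28 (edgeR adjusted p = 0.000501; exact permutation p = 0.005, the smallest this design can give). Means were 223 ± 105 CPM in Combined and 374 ± 70.0 CPM in Active IKKβ (SD, n = 3 each), a log2 difference of -0.75 ± 0.37 that was not called (edgeR adjusted p = 0.538). The difference between the changes with and without Stat3 loss was -0.72 ± 0.53, with a 95% interval from -1.89 to 0.44. Without Control replicate 1 the Active IKKβ call was lost at an edgeR adjusted p of 0.0512, with a log2 change of 2.95. The call in Combined against Stat3 loss was lost in 12 of 23 alternatives, at log2 changes of 1.82 to 2.56 over all of them. It was lost without Control replicate 1 (edgeR adjusted p = 0.0697), Control replicate 2 (0.0577), Active IKKβ replicates 1, 2 or 3 (0.0525, 0.0789 and 0.073), Stat3 loss replicates 1, 2 or 3 (0.167, 0.126 and 0.0638) or Combined replicate 3 (0.131). It was also lost with only the groups compared (edgeR adjusted p = 0.255), with a sex term (0.0559) and without the 2 libraries rich in gastric transcripts (0.0775). The antisense gene Gm40578 overlaps Tnfaip2 and is not among the symbols counted. Of the 50-base words of Tnfaip2 exons, 4.53% also occur in another gene.

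Of the tandem pair of cIAP genes, Birc3 changed with active IKKβ and Birc2 did not pass the test. They lie 11634 bases apart on chromosome 9 (mm10), Birc2 at 7818227 to 7837064 and Birc3 at 7848699 to 7873186, both on the minus strand. Birc3 held 21.2, 29.0 and 25.3 CPM in Combined, 22.7, 28.5 and 31.9 CPM in Active IKKβ, 13.3, 11.8 and 13.9 CPM in Stat3 loss, and 12.6, 12.8 and 9.18 CPM in Control. Every library with active IKKβ exceeded 21 CPM in this gene, and every library without it was under 14 CPM. Birc3 rose 2.40-fold in Active IKKβ against Control (log2 1.26 ± 0.18, edgeR adjusted p = 0.00846). That call was lost with library totals (1.15, edgeR adjusted p = 0.0904) and with only the groups compared (1.25, edgeR adjusted p = 0.0755). In Combined against Stat3 loss it was 1.94-fold higher, which missed the threshold (log2 0.95 ± 0.18, edgeR adjusted p = 0.0585), and it passed without Control replicate 3 (0.0462) or Combined replicate 1 (0.0437) and with a term for the keratin set (0.03). The mean of both changes was 1.11 ± 0.13 (edgeR adjusted p = 0.00101; exact permutation p = 0.005). Birc2 averaged 35.4 ± 5.54 CPM in Combined, 31.4 ± 6.97 in Active IKKβ, 33.5 ± 6.18 in Stat3 loss and 31.4 ± 8.93 in Control (SD, n = 3 each). Its mean change of 0.04 ± 0.16 had a 95% interval from -0.32 to 0.40 (edgeR adjusted p = 0.934), and it was -0.13 without the 2 libraries rich in gastric transcripts.

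Within a library, Birc3 reads per Birc2 read do not depend on how libraries are scaled. This ratio averaged 0.720 ± 0.137 in Combined, 0.927 ± 0.308 in Active IKKβ, 0.398 ± 0.0925 in Stat3 loss and 0.377 ± 0.0697 in Control (SD, n = 3 each). The lowest ratio with active IKKβ was 0.5755, in Active IKKβ replicate 1, and the highest without it was 0.504, in Stat3 loss replicate 3. The mean log2 difference was 1.06 (exact permutation p = 0.005, 6 libraries with and 6 without active IKKβ). Of the 50-base words of their exons, 7.56% in Birc3 and 1.49% in Birc2 also occur in another gene. Words shared with other members number 71 of 5079 in Birc3 and 65 of 4579 in Birc2.

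**Figure D3:**
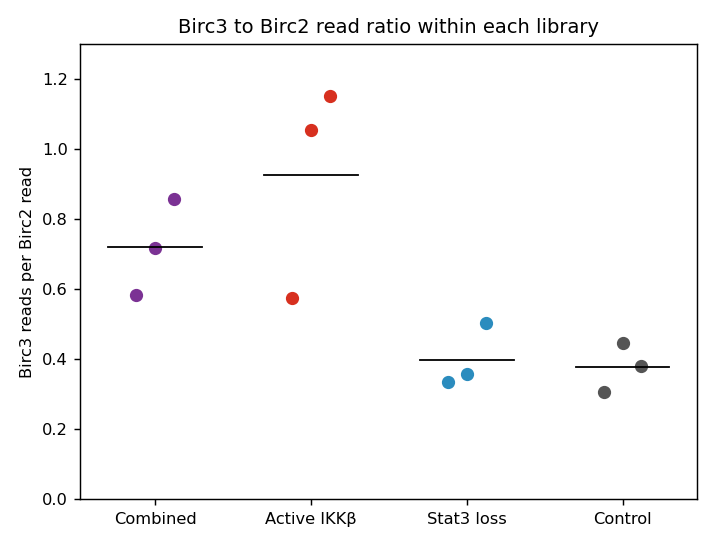
Birc3 reads per Birc2 read in each library by group, with 1 point per library and a bar at the group mean. The 6 libraries with active IKKβ start at 0.5755, above the 0.504 of the highest library without it.

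Among the TRAF adaptors, Traf2 and Traf3 rose, by 0.50 and 0.44 on the log2 scale, and Traf1 was barely counted. Traf2, the adaptor that recruits the cIAPs, held 41.45, 41.7 and 49.4 CPM in Combined, 45.35, 50.25 and 46.05 CPM in Active IKKβ, 27.3, 31.2 and 35.8 CPM in Stat3 loss, and 32.1, 36.0 and 31.5 CPM in Control. The groups with and without active IKKβ did not overlap. Its mean change was 0.50 ± 0.09 on the log2 scale, 1.41-fold (edgeR adjusted p = 0.0128; exact permutation p = 0.005). In the single comparisons Traf2 did not pass by edgeR, at 0.51 ± 0.12 (edgeR adjusted p = 0.102) between Active IKKβ and Control and 0.49 ± 0.12 (edgeR adjusted p = 0.17) between Combined and Stat3 loss. Scaled by library totals alone, the mean change of Traf2 was 0.43 and its call was lost (edgeR adjusted p = 0.11).

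Traf3, which with TRAF2 keeps NIK low, held 68.2, 62.7 and 73.6 CPM in Combined, 70.3, 76.3 and 80.4 CPM in Active IKKβ, 49.1, 57.6 and 50.45 CPM in Stat3 loss, and 48.1, 53.05 and 59.5 CPM in Control. The gap between the groups was narrow here, with 62.7 CPM in Combined replicate 2 against 59.5 CPM in Control replicate 3. The mean change was 0.44 ± 0.08, 1.36-fold (edgeR adjusted p = 0.0154; exact permutation p = 0.005). It was 0.50 ± 0.11 (edgeR adjusted p = 0.079) between Active IKKβ and Control and 0.38 ± 0.11 (edgeR adjusted p = 0.271) between Combined and Stat3 loss. The call on the mean change was lost without Active IKKβ replicate 2 (edgeR adjusted p = 0.052), Active IKKβ replicate 3 (0.058) or Combined replicate 3 (0.0555), and with library totals (0.0907), at changes of 0.37 to 0.42. Traf2 overlaps the pseudogene Gm13433 and Traf3 overlaps 4930595D18Rik on the opposite strand. Neither has a row in the tables used here.

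Traf1, an NF-κB target of lymphoid and dendritic cells that modifies TRAF2 complexes, held 0.551, 1.22 and 1.05 CPM in Combined, 1.84, 1.21 and 1.59 CPM in Active IKKβ, 0.541, 0.747 and 0.436 CPM in Stat3 loss, and 1.06, 1.46 and 0.648 CPM in Control. These groups overlapped. The mean change with active IKKβ was 0.62 ± 0.31 (edgeR adjusted p = 0.36; exact permutation p = 0.045) and the mean change with Stat3 loss was -0.79 ± 0.31 (edgeR adjusted p = 0.307; exact permutation p = 0.02). Both exact values come from 10 members tested in turn and neither call passed over all genes. The 5 leukocyte markers summed to 15.0 to 47.3 CPM in Combined, 50.7 to 69.75 in Active IKKβ, 6.27 to 19.6 in Stat3 loss and 14.5 to 33.5 in Control, so the highest group was the same for the marker sum and for Traf1. None of these 5 markers passed the test with active IKKβ, and their median change was 1.21. Their part in the Traf1 values was not tested. In bulk epithelium, fewer cells of a type and less RNA per cell cannot be told apart.

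None of the direct inhibitors of death signalling passed the test with active IKKβ. Cflar, which encodes the caspase-8 inhibitor c-FLIP, held 53.3, 43.3 and 48.6 CPM in Combined, 42.8, 56.7 and 57.65 CPM in Active IKKβ, 45.3, 46.7 and 42.4 CPM in Stat3 loss, and 34.7, 37.5 and 50.2 CPM in Control. The groups overlapped, and the mean change was 0.24 ± 0.11 (edgeR adjusted p = 0.35), with an interval from -0.01 to 0.48. Mcl1 averaged 255 ± 22.7 CPM in Combined, 233 ± 32.25 in Active IKKβ, 204 ± 40.2 in Stat3 loss and 207 ± 16.9 in Control (SD, n = 3 each). Its mean change was 0.24 ± 0.11 (edgeR adjusted p = 0.328), with an interval from -0.00 to 0.49. A rise as large as that of Birc3, 1.11, lies outside the intervals of both genes.

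Bcl2l1 held 58.7, 40.8 and 59.6 CPM in Combined, 49.4, 73.5 and 70.7 CPM in Active IKKβ, 57.2, 50.6 and 75.3 CPM in Stat3 loss, and 52.5, 52.0 and 76.5 CPM in Control. All 4 genotype groups overlapped, but the sets with high and low Krt4 and Krt13 did not. The 6 keratin-rich libraries held 58.7 to 76.5 CPM and the other 6 held 40.8 to 57.2 CPM. Among all genes 8.84% lay higher in every keratin-rich library, and this split was noticed in the data, so it carries no test. The mean change with active IKKβ was -0.05 ± 0.16 (edgeR adjusted p = 0.905). With a term for the keratin set it was -0.23 ± 0.06 and passed the threshold (edgeR adjusted p = 0.0413), and without the 2 libraries rich in gastric transcripts it was 0.11. With that term Bcl2l1 passed in Combined against Stat3 loss (-0.38, edgeR adjusted p = 0.0419) and not between Active IKKβ and Control (-0.08, edgeR adjusted p = 0.663). In Combined against Control it passed as well (-0.36, edgeR adjusted p = 0.0333). Within the keratin-rich set the mean difference was -0.22 and within the other set -0.24.

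Tnfaip8, the founding TIPE family member, held 117, 148 and 133 CPM in Combined, 98.4, 114 and 100.3 CPM in Active IKKβ, 125, 150 and 137 CPM in Stat3 loss, and 152.5, 120.0 and 126 CPM in Control. All 3 Active IKKβ libraries lay below all 3 libraries of each other group. The difference did not pass in Active IKKβ against Control (log2 -0.35 ± 0.13, edgeR adjusted p = 0.306), where 8.21% of all genes were lower without overlap. It did not pass in Combined against Active IKKβ either (0.35 ± 0.13, edgeR adjusted p = 0.462), where 7.12% of genes were higher without overlap. Combined against Stat3 loss differed by -0.05 ± 0.13, so the mean change with active IKKβ was -0.20 ± 0.09 (edgeR adjusted p = 0.339). Of its 50-base words 9.78% occur in other genes, and C030005K06Rik overlaps it on the opposite strand.

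**Figure D4:**
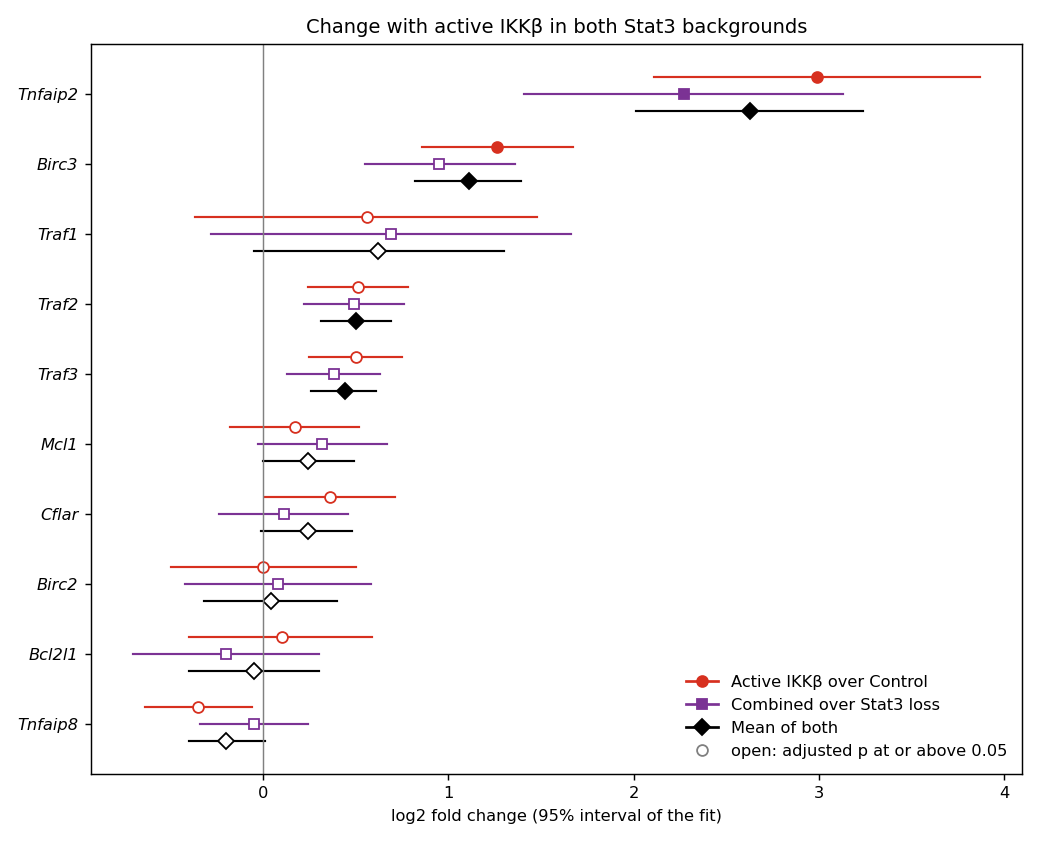
Log2 fold change of each member in Active IKKβ against Control, in Combined against Stat3 loss and as the mean of both, with 95% intervals of the fit and open symbols where the edgeR adjusted p was not below 0.05. The mean change passes for Tnfaip2 (2.63), Birc3 (1.11), Traf2 (0.50) and Traf3 (0.44), and the other 6 intervals reach 0.

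The 4 called changes were also read within sets of libraries, which hold 1 or 2 libraries of each group. In these 4 genes every library with active IKKβ lay above every library without it. Differences above 0 within the sets were therefore fixed in advance and carry no test, and only their sizes are described. In keratin-rich libraries the mean difference was 2.39 for Tnfaip2, 1.22 for Birc3, 0.47 for Traf2 and 0.44 for Traf3. In the other 6 libraries it was 2.42, 1.02, 0.46 and 0.36 for the same genes. In female libraries, 1 per group, the differences were 2.32 for Tnfaip2, 0.76 for Birc3, 0.55 for Traf2 and 0.51 for Traf3, and in male libraries, 2 per group, they were 2.79, 1.27, 0.48 and 0.41. All 4 calls held with a term for the keratin set, with edgeR adjusted p values of 0.000171, 0.000627, 0.00985 and 0.00963 in the same order.

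Markers of dendritic and Langerhans cells moved with active IKKβ as well. Of 9 such markers 7 were tested and 5 rose in the mean change, Itgax, Cd207, Flt3, Cd74 and H2-Ab1, by 1.19 to 2.72 on the log2 scale. The sum of the 9 was 264 to 575 CPM in Combined, 542 to 686.5 in Active IKKβ, 209 to 306 in Stat3 loss and 208 to 349 in Control. This sum holds Epcam, which is also a squamous marker and had 119 to 142 CPM in Combined, 72.6 to 109 in Active IKKβ, 112 to 158 in Stat3 loss and 105 to 110 in Control. The other 8 markers summed to 145 to 435 CPM in Combined, 469.5 to 577 in Active IKKβ, 69.05 to 148 in Stat3 loss and 98.2 to 239.5 in Control. Cd207, which encodes langerin, had 3.60 to 16.0 CPM in Combined, 18.1 to 21.1 in Active IKKβ, 0.818 to 2.42 in Stat3 loss and 2.515 to 4.13 in Control. The 8-marker sum and Cd207 were thus above every library without active IKKβ in all 3 Active IKKβ libraries. Combined overlapped Control in both, and in the sum it also overlapped Stat3 loss. Of 7 neutrophil markers 3 were tested, Elane was at 0 in all libraries and Csf3r stayed at or below 0.473 CPM. The 2 that rose were S100a8 and S100a9, which squamous epithelium also makes, by 5.12 and 2.57. The part of these cells in the 4 called members was not tested.

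Combined against Control, in which both alleles and Cre differ, called Birc3 and Tnfaip2 higher, where 0.566% of all genes were called higher. Birc3 was 2.18-fold higher (log2 1.13 ± 0.18, edgeR adjusted p = 0.0164) and Tnfaip2 4.74-fold higher (log2 2.24 ± 0.39, edgeR adjusted p = 0.0233). The Birc3 call was lost without Control replicate 1 (edgeR adjusted p = 0.0545), Control replicate 2 (0.0596), Combined replicate 2 (0.0515) or Combined replicate 3 (0.0679), with library totals (0.129) and with only the groups compared (0.149). The Tnfaip2 call was lost without Control replicate 1 (edgeR adjusted p = 0.103), Control replicate 2 (0.139) or Combined replicate 3 (0.084) and with only the groups compared (0.12). In this comparison 5 members were higher without overlap, Tnfaip2, Birc3, Traf2, Traf3 and Mcl1, where 7.2% of all genes were. This comparison shares its Control libraries with Active IKKβ against Control, where 4 members were higher (9.34% of all genes) and 1 lower without overlap, and its Combined libraries with Combined against Stat3 loss, where 4 were higher (6.06%).

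No member was called with Stat3 loss in either IKKβ background. Stat3 loss against Control also differs in Cre and in the unrecombined Ikk2ca allele that Control carries. That comparison enters the mean of both Stat3 changes. In Stat3 loss against Control 0 of 10 members and 0 of 14134 genes were called by edgeR (0%), while 0 members and 1060 genes had an unadjusted p under 0.05 and DESeq2 called 0 members and 106 genes. In Combined against Active IKKβ edgeR called 0 members and 0 genes (0%). There 1 member and 1396 genes had an unadjusted p under 0.05, and DESeq2 called 0 members and 131 genes. For the mean of both Stat3 changes edgeR called 0 members and 37 genes (0.262%), with 1 member, Traf1, and 1793 genes under an unadjusted 0.05 and 0 members and 402 genes called by DESeq2. The mean Stat3 changes of the 4 members called higher with active IKKβ were as follows. Tnfaip2 stood at -0.38 ± 0.26 (interval -0.96 to 0.20) and Birc3 at 0.02 ± 0.13 (-0.26 to 0.30). Traf2 stood at -0.09 ± 0.09 (-0.28 to 0.11) and Traf3 at -0.09 ± 0.08 (-0.27 to 0.08). The test of whether the IKKβ change itself differed with Stat3 loss called 0 members and 0 genes by edgeR (0%), with 0 members and 658 genes under an unadjusted 0.05, and DESeq2 called 0 members and 6 genes. For Birc3 that difference was -0.31 ± 0.26 (interval -0.88 to 0.25), so a weaker rise of Birc3 without Stat3 by up to 0.88 on the log2 scale is within the interval.

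The genes around the members in the pathway were read from 11 lists, for the mean change with active IKKβ, where 2.72% of all genes were called in either direction. In the alternative NF-κB arm that TRAF2, TRAF3 and the cIAPs restrain, 2 of 4 rose, the subunit genes Relb and Nfkb2. Relb held 21.8 to 38.7 CPM in Combined, 25.0 to 28.7 in Active IKKβ, 7.62 to 11.7 in Stat3 loss and 9.79 to 11.85 in Control (log2 1.53 ± 0.16, edgeR adjusted p = 0.000429). Nfkb2, which encodes p100, held 41.45 to 63.5 CPM in Combined, 52.75 to 64.1 in Active IKKβ, 28.6 to 33.3 in Stat3 loss and 30.1 to 33.45 in Control (0.86 ± 0.11, edgeR adjusted p = 0.00197). In both genes every library with active IKKβ lay above every library without it. The kinase genes of that arm did not pass, Map3k14 (NIK) at -0.14 ± 0.14 and Chuk (IKKα) at 0.13 ± 0.10. The median of the 4 was 0.49, against 0.00 over all genes.

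Of 10 genes of the linear ubiquitin and A20 group 3 rose. Tnfaip3, which encodes the deubiquitinase A20, held 23.6 to 48.05 CPM in Combined, 24.3 to 30.3 in Active IKKβ, 9.84 to 11.0 in Stat3 loss and 6.48 to 15.1 in Control (log2 1.51 ± 0.22, edgeR adjusted p = 0.00407). The A20-binding partner Tnip1 rose by 0.75 ± 0.10 (edgeR adjusted p = 0.00197). Its relative Tnip3 had 50 to 165 counts per library in Combined and 111 to 170 in Active IKKβ, but only 2 to 7 in Stat3 loss and 1 to 4 in Control. The fitted Tnip3 change of 5.19 ± 0.44 rests on those few counts (edgeR adjusted p = 0.000124). Of 3 IκB genes, Nfkbia rose by 1.21 ± 0.12 (edgeR adjusted p = 0.000323) and Nfkbie by 1.41 ± 0.24 (edgeR adjusted p = 0.0122), while Nfkbib was at 0.32 ± 0.11 (edgeR adjusted p = 0.196).

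The cell death genes that are not members gave 1 call. It came from a list of 18 genes for the death receptor complex and the apoptotic caspases. The called gene, Xaf1, belongs to neither, and its product binds and opposes XIAP. Xaf1 fell, with 19 to 31 counts per library in Combined and 28 to 45 in Active IKKβ. Stat3 loss libraries held 59 to 147 Xaf1 counts and Control libraries 52 to 85. Levels of Xaf1 were 0.9945 to 1.55 CPM in Combined, 1.35 to 1.935 in Active IKKβ, 3.12 to 6.62 in Stat3 loss and 1.98 to 4.44 in Control (log2 -1.40 ± 0.29, edgeR adjusted p = 0.0262). By edgeR neither single comparison called Xaf1. It stood at -1.03 ± 0.40 (edgeR adjusted p = 0.32) between Active IKKβ and Control and at -1.78 ± 0.41 (edgeR adjusted p = 0.127) between Combined and Stat3 loss. DESeq2 called Xaf1 in Combined against Stat3 loss (DESeq2 adjusted p = 0.00448). The median of the 18 was -0.05. Of 11 tested of 12 pro-apoptotic Bcl2 relatives none passed by edgeR, with the BH3-only genes Pmaip1 at 0.96 ± 0.42 (edgeR adjusted p = 0.302) and Bmf at 0.52 ± 0.24 (edgeR adjusted p = 0.322) nearest to it and a median of 0.11. Of 6 other anti-apoptotic Bcl2 relatives 2 were counted well enough to test, Bcl2 at -0.22 ± 0.17 and Bcl2l2 at -0.01 ± 0.06.

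Other families of the members showed no edgeR call in the mean change with active IKKβ. Of 8 other IAP genes 5 were tested, with Birc6 at 0.28 ± 0.09 (edgeR adjusted p = 0.164) and Naip5 at 1.04 ± 0.44 (edgeR adjusted p = 0.29), and a median of 0.28. Of 12 other TRAF and TRAF-binding genes 11 were tested, 10 of them above 0 with a median of 0.15, and the TRAF partner Tank stood at 0.45 ± 0.15 (edgeR adjusted p = 0.16) and Traip at -0.42 ± 0.16 (edgeR adjusted p = 0.212). Of 17 receptors that recruit TRAFs 13 were tested with a median of 0.23. Tnfrsf19 at 0.60 ± 0.14 (edgeR adjusted p = 0.0503) and Tnfrsf4, which encodes OX40, at 1.27 ± 0.30 (edgeR adjusted p = 0.0534) were closest to the threshold. The list of 6 genes for other TIPE and Tnfaip genes had a median of 0.57, with Tnfaip8l2 at 0.69 ± 0.28 (edgeR adjusted p = 0.258). That list and its median also hold Stab1, which is of neither family, at 0.84 ± 0.27 (edgeR adjusted p = 0.153). Of 5 genes that control Mcl1 protein turnover, Bag3 was at 0.13 ± 0.07 (edgeR adjusted p = 0.428) and Usp9x at 0.36 ± 0.21 (edgeR adjusted p = 0.458), with a median of 0.13. In the Stat3 comparisons edgeR called no gene of the 11 lists. DESeq2 called the receptor gene Tnfrsf21 in Combined against Active IKKβ (log2 -0.78, DESeq2 adjusted p = 0.0106) and Traf3ip2 in the mean Stat3 change (log2 0.27, DESeq2 adjusted p = 0.0451). Tnfrsf21 was also called lower by DESeq2 in Combined against Stat3 loss (log2 -0.70, DESeq2 adjusted p = 0.0177).

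**Figure D5:**
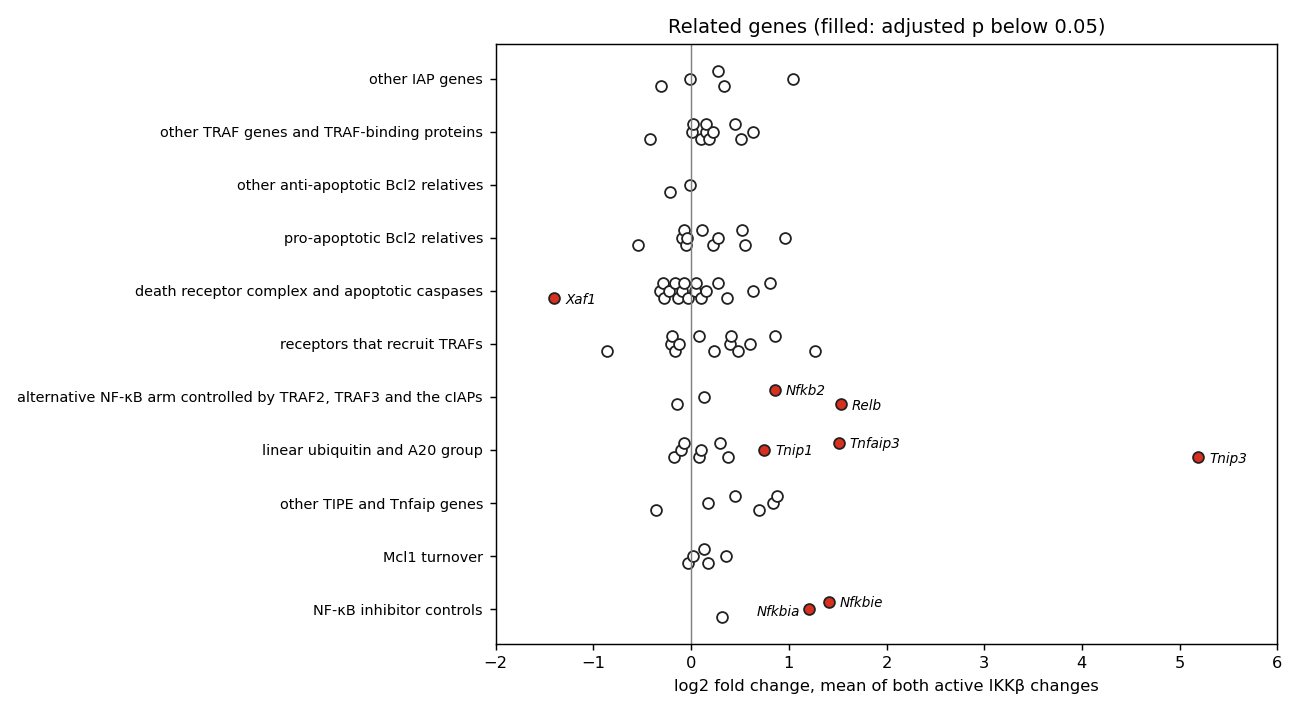
Mean log2 fold change with active IKKβ of the tested genes in the 11 related lists, with 1 point per gene and filled points for an edgeR adjusted p below 0.05. The filled points are Relb, Nfkb2, Tnfaip3, Tnip1, Tnip3, Nfkbia and Nfkbie above 0 and Xaf1 at -1.40.

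The genes whose pattern lay nearest to each called member were found by the root mean square difference of centred log2 CPM over the 12 libraries, among 11138 genes. For Birc3 they were Rab32 (0.224), St5 (0.228) and Nfkbia (0.233), against its own SD of 0.61. For Tnfaip2 they were Fcgbp (0.352), Olfml2a (0.435) and Skint3 (0.455), against an SD of 1.48. The nearest genes to Traf2 were Cst3 (0.118), B4galnt1 (0.118) and Mvp (0.127), and to Traf3 they were Mvp (0.103), Txndc11 (0.106) and Ticam1 (0.108). The SDs of Traf2 and Traf3 were 0.29 and 0.26, and a distance is read against the SD of its own member. Points of 1 library share its depth and cell content, and the distances are a description.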

How the data were processed

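Whole-number read counts per gene symbol were deposited for each of 12 libraries of polyadenylated RNA, with no scaling visible in the values. The submitters' processing notes name cutadapt 1.13, STAR, HTSeq 0.6.1p1, DESeq2 and the mouse build mm10, and the strand setting and the annotation are not given in the sources used here. Without strand, reads of a gene and of an overlapping antisense gene cannot be told apart. Each table lists 23337 symbols, and 0 columns of per-sample values were left unused.

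Counts were analysed with edgeR 4.0.16, limma 3.58.1 and DESeq2 1.42.0 in R 4.3.3. The default filterByExpr rule left 14134 genes. After TMM scaling, all 4 groups entered a single robust quasi-likelihood fit, with p-values of 8 comparisons adjusted by Benjamini-Hochberg over all genes tested and calls made below 0.05. Errors beside log2 fold changes are standard errors of that fit (common dispersion 0.0878). CPM values are counts per 1 M of TMM-scaled library size, and log2 CPM used a prior count of 2. Exact permutation tests were 2-sided and rearranged libraries between the groups compared, within each background for mean changes. With 3 against 3 they allow no p below 0.1, and for mean changes none below 0.005. The scripts were tested on simulated data.

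Positions, exon lengths and 50-base words came from GENCODE M21 (mm10), and promoters from RefSeq (GRCm38.p6). Of 194 list memberships 191 were found in the tables. All members are named in every comparison, with up to 4 called genes per related list, or the 2 with the smallest adjusted p where none was called, and the 3 nearest genes to each called member with an average log2 CPM of at least 1, predicted models left out. The members and lists were chosen with earlier results of these data known. The fit with a term for the keratin-rich libraries was added after seeing the data. Alternatives were scaling by library totals or by DESeq2 size factors, the DESeq2 Wald test, omission of the count filter or a minimum of 1 CPM in 3 libraries, a fit that is not robust, only the groups compared, a replicate block, a sex term, each library left out, and the 2 libraries rich in gastric transcripts left out.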

Additional observations from a re-analysis of the deposited data

How the results depend on the processing

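Over the 80 member results (10 genes in 8 comparisons), 1810 alternative values were computed: 1678 kept the direction and the side of the threshold, 30 lost a call, 11 gained one and 91 changed sign. No result that changed sign had a log2 fold change over 0.19 in size to begin with, and none had been called. The mean IKKβ changes of Birc3 (1.03 to 1.19) and Tnfaip2 (2.40 to 2.85) passed in all 22 alternatives. Low counts limit Traf1 alone among the members.

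Counts of genes called depended on the setting, and the cause was not tested. Against 135 genes in Active IKKβ against Control there were 66 with library totals, 442 with DESeq2, 61 with only the groups compared, 328 with the keratin term and 83 without the 2 libraries rich in gastric transcripts. Against 65 in Combined against Stat3 loss there were 29, 297, 16, 154 and 28 in the same order. Combined against Control had 125 genes, with 53, 476, 14 and 402 under the first 4 of these settings. The mean IKKβ change had 384, with 217 for library totals, 860 for DESeq2 and 651 for the keratin term. The mean Stat3 change had 37 (9 higher), with 0 for library totals, 402 for DESeq2 (173 higher), 421 for the keratin term (195 higher) and 23 without the gastric libraries (12 higher). Stat3 loss against Control had 0 and 106 with DESeq2, Combined against Active IKKβ 0, 131 with DESeq2 and 41 with the keratin term, and the interaction 0 and 6 with DESeq2. Library totals moved the share of higher calls, to 29 of 29 (58 of 65 with TMM) in Combined against Stat3 loss, 192 of 217 (300 of 384) in the mean IKKβ change and 42 of 53 (80 of 125) in Combined against Control, and with DESeq2 323 of 442 (127 of 135) were higher in Active IKKβ against Control. Leaving out each library in turn gave 42 to 145 genes for Active IKKβ against Control, 20 to 81 for Combined against Stat3 loss, 43 to 147 for Combined against Control, 184 to 444 for the mean IKKβ change, 0 to 52 for the mean Stat3 change, and 0 to 1 each for Stat3 loss against Control and Combined against Active IKKβ.

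The labels do not say that library numbers pair the samples, and not every same-number pair correlated, so the fit has no replicate block. Of 18 same-number pairs the correlation of deviations ran from -0.41 to 0.45, with 9 over 0.1, and 8 of 12 libraries correlated best with their own number, which is a hint of shared variation from the data and not from the design. Replicate 1 was female in every group. With the replicate block 173 genes were called in Active IKKβ against Control, 71 in Combined against Stat3 loss, 503 in the mean IKKβ change and 0 in the mean Stat3 change, and the sign of 2 member results near 0 changed, Birc2 in Active IKKβ against Control (0.01) and Tnfaip8 in Combined against Control (-0.01). The block changed no member's call.

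Signs changed as follows. Without the gastric libraries Birc2 was -0.06 in Combined against Stat3 loss and -0.13 in the mean IKKβ change, Bcl2l1 0.11 in the mean IKKβ change and -0.15 in Stat3 loss against Control, Traf3 0.01 in Stat3 loss against Control, Birc3 -0.06, Cflar -0.03 and Mcl1 -0.08 in the mean Stat3 change, and Traf2 0.04 in the interaction. With library totals Birc2 was -0.03 in the mean IKKβ change, Traf3 0.03, Mcl1 0.02 and Tnfaip2 0.03 in Stat3 loss against Control, and Traf2 0.00 in the interaction. With the sex term Birc2 was 0.01 in Active IKKβ against Control. With the keratin term Birc2 was 0.15 and Bcl2l1 -0.08 in Active IKKβ against Control, and Traf1 was 0.06 in Combined against Control. Tnfaip8 in Combined against Control was -0.01 with DESeq2 size factors, library totals, the 1 CPM filter and DESeq2, and -0.00 with no count filter, only the groups compared and the sex term.

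Leaving out each library in turn, signs changed within these ranges. In Active IKKβ against Control Bcl2l1 ran from -0.03 to 0.30 and Birc2 from -0.20 to 0.25. In Combined against Stat3 loss Birc2 ran from -0.05 to 0.22 and Tnfaip8 from -0.13 to 0.04. In the mean IKKβ change Bcl2l1 ran from -0.12 to 0.05 and Birc2 from -0.06 to 0.16. In Stat3 loss against Control Bcl2l1 ran from -0.17 to 0.22, Birc2 from -0.06 to 0.34, Mcl1 from -0.20 to 0.06, Tnfaip2 from -0.33 to 0.28, Tnfaip8 from -0.02 to 0.16, Traf2 from -0.18 to 0.02 and Traf3 from -0.11 to 0.05. In the mean Stat3 change Birc3 ran from -0.05 to 0.08, Cflar from -0.05 to 0.10 and Mcl1 from -0.03 to 0.11. In Combined against Control Bcl2l1 ran from -0.29 to 0.02, Tnfaip8 from -0.08 to 0.11 and Traf1 from -0.42 to 0.14. In the interaction Birc2 ran from -0.17 to 0.28, Traf1 from -0.17 to 0.43 and Traf2 from -0.11 to 0.09.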
